A study of Mus musculus with 12 samples.

Results

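The constitutive proteasome subunit genes were taken as the protein-coding genes, listed in both deposited count tables, whose symbols begin with Psm, a letter from a to g and a number. Psmb8, Psmb9, Psmb10, Psme1 and Psme2, which belong to the inducible form of the complex, were left out. The rule gave 45 genes of 24982 listed in both tables, and it used names only, no measured value. Of these, 41 fall into a structural or assembly class: 7 genes of the 20S alpha ring, 7 of the 20S beta ring, 6 base ATPases, 3 base non-ATPases, 8 lid subunits, 4 core assembly chaperones, 3 base assembly chaperones and 3 activators or inhibitors. Psma8 and Psmb11 are variants known from testis and thymus. Psmc3ip, a cofactor of meiotic recombination, and Psme2b, a near copy of Psme2, only share the name pattern.

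RNA was measured in bone marrow cells of C57BL/6 mice, which carried melanoma per the series title, with the Smart-Seq2 protocol, which amplifies whole cDNAs from very little RNA. Some mice received diABZI, a synthetic drug that switches on STING, an adaptor that responds to DNA in the cytosol, and the others served as controls. Each of 4 groups had 3 of the 12 libraries: LSK and GMP cells of control mice, and LSK and GMP cells of mice that received the STING agonist. LSK names lineage-negative, Sca-1-positive, Kit-positive stem and multipotent progenitors and GMP names granulocyte-monocyte progenitors. The labels give no dose, time, age or sex, and do not say which mice or how many cells a library came from, so p-values measure the spread between libraries, which may be technical.

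The proteasome degrades proteins tagged with ubiquitin. Its 20S core is a barrel of alpha rings, which gate entry, and beta rings, of which Psmb5, Psmb6 and Psmb7 carry the catalytic sites. The 19S particle caps the core: its base holds ATPases that unfold substrates and subunits that bind ubiquitin, and its lid holds the deubiquitinase Psmd14. Dedicated chaperones assemble base and core, and most subunit genes are known to be raised together by the factor NRF1, encoded by Nfe2l1, when proteasome activity falls. Interferons replace the catalytic subunits with Psmb8, Psmb9 and Psmb10.

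Library totals ran from 30649314 to 47225983 counts, and the 45 genes held between 0.688% and 1.12% of them. Labels were checked against marker genes. In LSK-labelled libraries Ly6a, which encodes Sca-1, was at 0.40 to 0.83 counts per 1000000 (CPM) in controls and 5.31 to 9.07 CPM after the agonist. The summed level of 8 erythroid markers was 9377 to 15059 CPM there against 191 to 265 CPM in GMP libraries, so these libraries are called LSK-labelled. Summed levels of 9 granulocyte-monocyte progenitor markers were 39221 to 50226 CPM in GMP and 489 to 11046 CPM in LSK-labelled libraries. For 5 mature neutrophil markers the sum was 363 CPM in GMP control replicate 3 and 365 CPM in LSK STING agonist replicate 3, and 1.27 to 19.2 CPM in the other libraries. Levels below are CPM by library total; log2 changes come from edgeR's quasi-likelihood fit with TMM scaling, and called means a Benjamini-Hochberg adjusted p under 0.05 over all genes tested. Counts are of reads without molecular identifiers.

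In controls, levels per kilobase of transcript differed widely between subunits that the particle holds in equal number. In the alpha ring Psma1 was highest, at 411 ± 99.0 CPM per kilobase (SD, n = 3) in LSK-labelled cells and 432 ± 84.3 in GMP, and Psma3 lowest, at 27.8 ± 11.6 and 30.5 ± 12.4. The beta ring ran from Psmb1, at 17.4 ± 8.41 CPM per kilobase in LSK-labelled cells and 22.3 ± 15.4 in GMP, to Psmb2, at 401 ± 132 and 506 ± 155. Psmb1 and Psmb4, at 17.6 ± 10.2 CPM per kilobase in LSK-labelled controls, did not differ beyond their spread. How the authors counted reads that match more than 1 place is not given in the sources used here, and pseudogene copies of Psmb6 and Psmb7 are listed in the LSK table.

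Among the base ATPases, Psmc1 was highest, at 264 ± 44 CPM per kilobase (SD, n = 3) in LSK-labelled controls and 164 ± 9.17 in GMP controls, and Psmc2 lowest, at 81.2 ± 23.3 and 49.7 ± 10.1. The ubiquitin receptor Psmd4 stood at 567 ± 65.2 and 367 ± 40.7 CPM per kilobase, and the scaffold Psmd1 at 84.8 ± 15.1 and 43.1 ± 13.4. In the lid the deubiquitinase Psmd14 was highest, at 457 ± 62.4 and 357 ± 23.2 CPM per kilobase, and Psmd11 lowest, at 30.1 ± 7.57 and 23.1 ± 5.99. Psmg1, a chaperone of the alpha ring, stood at 299 ± 51.8 and 243 ± 57.4 CPM per kilobase against 28.8 ± 1.76 and 22.3 ± 6.46 for its partner Psmg2. The base chaperones Psmd5, Psmd9 and Psmd10 ran in LSK-labelled controls from 81.4 ± 11.1 CPM per kilobase for Psmd9 to 88.9 ± 14.2 for Psmd5. In GMP controls they ran from 34.6 ± 1.29 for Psmd5 to 56.6 ± 5.67 for Psmd10. Their order depended on the length used: per kilobase of all exons joined, Psmd9, Psmd5 and Psmd10 were at 29.2, 54.1 and 82.9 in LSK-labelled controls and at 13.5, 21.0 and 55.1 in GMP controls. By that length Psmg3 was the lowest core chaperone in both cell types, and Psmf1 in place of Psme4 the lowest of the activators and inhibitors in GMP controls, while the extremes of the other classes were the same genes. The activator Psme3 stood at 45.2 ± 10.1 and 46.9 ± 4.28 CPM per kilobase, and Psme4, a large activator, at 9.63 ± 0.649 and 11.4 ± 2.91.

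In controls 9 of the 44 genes tested were lower in GMP than in LSK-labelled cells and 1 was higher, against backgrounds of 6.98% lower and 4.55% higher among 16857 genes. The 9 were 6 of 17 subunits of the 19S particle, the base chaperones Psmd5 and Psmd9, and Psmf1, an inhibitor of the core. No gene of the 20S core was called, none of the 14 had an unadjusted p under 0.05, and DESeq2 and limma-voom called none either. The median log2 difference (GMP minus LSK) was -0.45 over the 19S particle, with 16 of 17 negative, and 0.22 over the 20S core, with 11 of 14 positive, against 0.04 over all genes tested. With 1 library left out the 19S median ran from -0.57 to -0.25, the latter without LSK control replicate 3. The 20S median was -0.17 without GMP control replicate 3, 0.09 without LSK control replicate 2, 0.49 without GMP control replicate 2 and 0.62 without LSK control replicate 3, so its sign rested on GMP control replicate 3. Neither group was tested as a whole.

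Psmd5, a chaperone that holds base ATPases before they join the particle, lies at chr2:34849734-34874968 (GRCm38, minus strand). In LSK-labelled controls it was at 324, 447 and 402 CPM and in GMP controls at 149.5, 148 and 158 CPM, without overlap. The log2 difference was -1.38 ± 0.22 (SE; edgeR adjusted p = 0.00217). Psmd9, a second base chaperone, at chr5:123169413-123250131, was at 178, 225 and 231 CPM in LSK-labelled controls and 101, 86.1 and 106 CPM in GMP controls, a log2 difference of -1.13 ± 0.20 (edgeR adjusted p = 0.0042). The third, Psmd10, which is also known as gankyrin, had a log2 difference of -0.60 that did not pass. All 3 base chaperones therefore had lower values in every GMP control than in any LSK-labelled one. The same held for 13 of the 44 genes tested and for 2511 of all 16857 genes.

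Psmf1, at chr2:151715812-151744186, encodes PI31, which blocks the core in vitro. It was at 100.05, 107 and 110 CPM in LSK-labelled controls and 32.0, 55.8 and 48.8 CPM in GMP controls, a log2 difference of -1.24 ± 0.25 (edgeR adjusted p = 0.00857). Psmd3, a lid scaffold at chr11:98682554-98695979, was at 370, 457 and 386 CPM against 202, 185 and 182 CPM, a log2 difference of -1.11 ± 0.20 (edgeR adjusted p = 0.00452). Neither gene's groups overlapped.

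All 3 base non-ATPases were lower in GMP controls. The scaffold Psmd1 was at 210, 291 and 291 CPM in LSK-labelled controls and 95.3, 178 and 129 CPM in GMP controls, and its log2 difference was -1.01 ± 0.27 (edgeR adjusted p = 0.0315). Its partner Psmd2 was at 436, 635 and 541 CPM against 241, 378 and 342 CPM, with a log2 difference of -0.77 ± 0.21 (adjusted p = 0.03). Psmd4 was at 822, 657 and 788 CPM against 487, 544 and 436 CPM, with a log2 difference of -0.64 ± 0.15 (adjusted p = 0.0188). In none of the 3 did the groups overlap, although the gap for Psmd2 was narrow.

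Psmc1, an ATPase of the base ring, was at 345, 431 and 484 CPM in LSK-labelled controls and 270.03, 244 and 269 CPM in GMP controls, a log2 difference of -0.70 ± 0.17 (edgeR adjusted p = 0.0207). The lid scaffold Psmd12 was at 135, 147 and 174 CPM against 96.1, 90.9 and 99.2 CPM, a log2 difference of -0.69 ± 0.17 (edgeR adjusted p = 0.0205). Leaving out 1 library at a time gave between 4 and 8 called genes. Psmd3, Psmd5, Psmd9 and Psmf1 were called in each of the 6 refits. Without LSK control replicate 1, 2 or 3 the counts were 8, 5 and 5, and without GMP control replicate 1, 2 or 3 they were 4, 7 and 4. Psmc1, Psmd2 and Psmd12 passed only without LSK control replicate 1, with the highest adjusted p at 0.107, 0.163 and 0.11. Psmd1 was lost without LSK control replicate 2 or 3 or GMP control replicate 1 or 3 (up to 0.13), and Psmd4 without LSK control replicate 1 or 3 or GMP control replicate 1 or 3 (up to 0.0782).

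**Figure D1:**
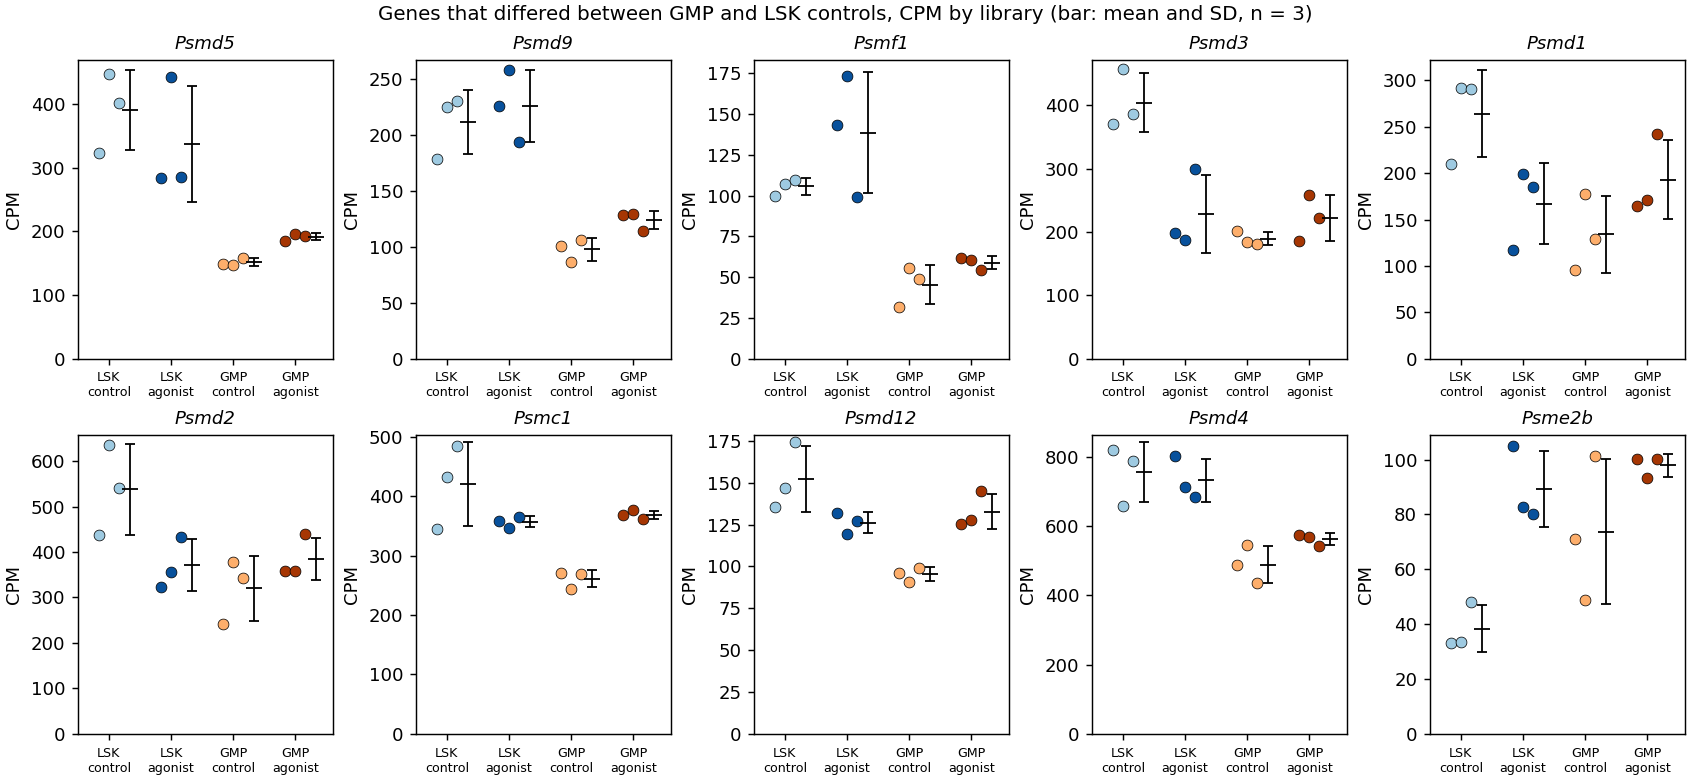
CPM by library for the 10 genes called between GMP and LSK-labelled controls; each point is a library, bars give the mean and SD of 3 libraries, and axes start at 0. Psmd5, Psmd9 and Psmf1 stayed lower in GMP in both conditions, with Psmf1 at 54.2 to 61.7 CPM in treated GMP against 99.2 to 173 CPM in treated LSK-labelled libraries.

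After the agonist 3 of the 44 genes were lower in GMP than in LSK-labelled cells, all of them also among the 9 above, and none was higher, against backgrounds of 4.85% lower and 4.57% higher. Psmf1 was at 143, 173 and 99.2 CPM in treated LSK-labelled libraries and 61.7, 60.6 and 54.2 CPM in treated GMP, a log2 difference of -1.29 ± 0.25 (edgeR adjusted p = 0.00748). Psmd9 was at 226, 258 and 194 CPM against 128, 129 and 114 CPM, a log2 difference of -0.91 ± 0.20 (edgeR adjusted p = 0.0136). Psmd5 was at 284, 442 and 285 CPM against 185, 196 and 193 CPM, a log2 difference of -0.87 ± 0.22 (edgeR adjusted p = 0.0273). The groups of these 3 genes did not overlap. Lower without overlap in treated GMP were 10 of the 44 genes and 2694 of all 16857.

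Next by p was the lid subunit Psmd13, at 216, 141 and 237 CPM in treated LSK-labelled libraries and 283, 282 and 369 CPM in treated GMP, with a log2 difference of 0.62 ± 0.22 that did not pass (edgeR adjusted p = 0.0974). The 6 subunits of the 19S particle called in controls were not called after the agonist. Psmf1 was called in each of 6 refits that left out 1 library, with adjusted p up to 0.0407. Psmd9 was lost without LSK STING agonist replicate 2 (adjusted p = 0.0688) or GMP STING agonist replicate 3 (0.0707), and Psmd5 without LSK STING agonist replicate 2 (0.136) or any 1 of the 3 treated GMP libraries (0.1, 0.0833 and 0.1 for replicates 1, 2 and 3).

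Cell type markers also differed between the controls of the cell types. In controls 7 of 8 erythroid markers were called lower in GMP, against 6.98% of all genes. Their summed levels were 9377 to 14043 CPM in LSK-labelled and 199 to 265 CPM in GMP libraries. Car1 was at 0 in GMP control replicate 1. Of 9 granulocyte-monocyte progenitor markers, 8 were called higher in GMP, against 4.55%. Of 8 stem and multipotent progenitor markers 1 was called lower, and of 4 lymphoid markers tested 1 was called higher. None of 6 megakaryocyte and platelet markers or 5 mature neutrophil markers was called. The part of cell type make-up in the differences was not tested, and in bulk libraries fewer cells of a type and less RNA per cell cannot be told apart.

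Sequence upstream of the transcription start was available from RefSeq (GRCm38.p6) for 37 of the 45 genes. The 250 bases before each start were searched on both strands for the letters of 5 known binding words. The ETS word, bound by the large ETS family of activators, was spelled CCGGAAG. The word of NF-Y, a general activator, was spelled CCAAT. The antioxidant response element, bound by NRF1 and NRF2, was taken as TGACNNNGC. The interferon-stimulated response element was searched too, as was the GATA word, spelled AGATAAG, which red cell regulators bind. None of these words holds another. The ETS word was found in 13 of the 37 genes (35.1%), against 15.6% of 10023 protein-coding genes tested that had a window and 7.83% of all 27025 genes with one. It was found in 8 of 14 genes of the 19S particle (57.1%) and 1 of 11 of the 20S core (9.09%), for which the NF-Y word was found in 6 (54.5%, against 40.7% of protein-coding genes tested). The antioxidant response element was found in 5 of the 37 (13.5% against 14%), which are Psmc6, Psmd12, Psmb5, Psmb6 and Psmd9. The interferon-stimulated response element was found in 3 (8.11% against 3.29%) and in none of the 5 genes of the inducible form.

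The windows below are shown because their genes were lower in GMP controls, the first 3 also after the agonist, and the last 4 because they hold the ETS word, on either strand, in the bases shown. Each line is read 5' to 3' on the gene's strand and ends at the base before the RefSeq start, with matches to any of the 5 words in capitals. Of the last 4 windows only the 130 bases nearest the start are given. The NF-Y word of Psmc1 and the antioxidant word of Psmd12 lie outside them. For Psmd5, Psmf1, Psmd9, Psmc1 and Psmd12 the interval in the deposited tables begins upstream of the RefSeq start.
Psmd5, chr2:34870963-34871212, minus strand: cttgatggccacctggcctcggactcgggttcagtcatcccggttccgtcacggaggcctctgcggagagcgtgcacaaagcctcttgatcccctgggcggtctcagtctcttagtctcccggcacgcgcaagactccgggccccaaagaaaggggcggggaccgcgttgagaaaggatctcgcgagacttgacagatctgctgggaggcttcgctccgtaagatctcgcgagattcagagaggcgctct
Psmf1, chr2:151741311-151741560, minus strand: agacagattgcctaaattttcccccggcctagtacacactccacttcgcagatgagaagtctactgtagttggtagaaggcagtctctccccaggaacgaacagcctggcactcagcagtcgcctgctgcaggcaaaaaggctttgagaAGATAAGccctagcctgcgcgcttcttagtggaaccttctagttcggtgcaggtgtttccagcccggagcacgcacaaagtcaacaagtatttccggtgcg
Psmd9, chr5:123227940-123228189, plus strand: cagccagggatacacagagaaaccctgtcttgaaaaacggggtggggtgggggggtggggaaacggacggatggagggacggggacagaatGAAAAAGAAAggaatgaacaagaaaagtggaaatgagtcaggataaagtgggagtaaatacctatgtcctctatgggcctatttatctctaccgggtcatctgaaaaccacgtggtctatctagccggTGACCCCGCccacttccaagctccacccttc
Psmc1, chr12:100110072-100110201, plus strand: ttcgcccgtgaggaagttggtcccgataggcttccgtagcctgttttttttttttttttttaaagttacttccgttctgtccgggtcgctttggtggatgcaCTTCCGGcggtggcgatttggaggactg
Psmd4, chr3:95042615-95042744, minus strand: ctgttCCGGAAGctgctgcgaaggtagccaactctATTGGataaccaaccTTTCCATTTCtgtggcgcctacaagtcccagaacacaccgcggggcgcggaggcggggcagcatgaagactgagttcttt
Psmd2, chr16:20651522-20651651, plus strand: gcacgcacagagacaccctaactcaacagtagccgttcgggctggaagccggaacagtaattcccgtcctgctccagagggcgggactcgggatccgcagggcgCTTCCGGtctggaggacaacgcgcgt
Psmd12, chr11:107479398-107479527, plus strand: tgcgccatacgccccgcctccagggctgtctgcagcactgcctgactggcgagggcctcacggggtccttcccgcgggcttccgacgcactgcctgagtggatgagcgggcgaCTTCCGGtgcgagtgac

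In Psmc1, Psmd2 and Psmd12 the ETS word began 28, 26 and 17 bases before the RefSeq start, on the opposite strand. In Psmc1 and Psmd12 it therefore lies inside the deposited gene interval. In Psmd4 it began 125 bases before the start on the gene's own strand. Psmd5 held none of the 5 words in its window, Psmf1 held the GATA word and Psmd9 the interferon and antioxidant words. Psmd1, also lower in GMP controls, held none of the 5, and Psmd3 had no window. Of the 8 lower genes with a window, 4 held the ETS word (50%), against 15.6% of protein-coding genes tested. All 4 belong to the 19S particle, where 8 of 14 genes held it (57.1%), so the lower genes did not exceed that class. A match describes letters only and was not tested as a binding site.

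Genes that work with the proteasome were also compared between cell types. In controls Nfe2l2, which encodes the antioxidant factor NRF2, was at 245, 455 and 265 CPM in LSK-labelled and 127, 124 and 107 CPM in GMP libraries, a log2 difference of -1.45 ± 0.24 (edgeR adjusted p = 0.00253). It was -1.46 ± 0.24 after the agonist (adjusted p = 0.00254). Nqo1, a standard NRF2 target, was at 53.4, 60.6 and 59.3 CPM against 0.83, 0.56 and 1.0 CPM in controls, a log2 difference of -6.18 ± 0.57 (edgeR adjusted p = 4e-05), and Gclm, which helps make glutathione, differed by -1.88 ± 0.45 (adjusted p = 0.0188; lost in 3 of 6 refits without 1 library, up to 0.0784). Of 8 NRF2 targets these 2 were called lower in controls, against 6.98% of all genes, with 5 of 8 negative and a median of -0.61. After the agonist 3 were called lower, against 4.85%, while the other 5 were positive, 2 of them without overlap, and the median was 0.92. Of all 16857 genes, 3371 were higher without overlap in that comparison. The third was Gclc, at -1.49 ± 0.40 (adjusted p = 0.0358; lost in 5 of 6 refits, up to 0.147).

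Nfe2l1 was at 68.9, 87.9 and 56.7 CPM in LSK-labelled controls and 94.1, 86.6 and 66.3 CPM in GMP controls, and the groups overlapped. After the agonist it was at 33.3, 36.7 and 49.5 CPM against 82.2, 90.1 and 91.0 CPM, and its log2 difference of 1.11 ± 0.22 passed (edgeR adjusted p = 0.00859). Ngly1, the deglycosylase that NRF1 needs to become active, differed by -1.06 ± 0.23 in controls (edgeR adjusted p = 0.0121; lost in 3 of 6 refits, up to 0.0605) and by -0.87 ± 0.23 after the agonist (adjusted p = 0.0345; lost in 5 of 6, up to 0.129). Of 10 regulators 2 were called lower in controls, against 6.98% of all genes, with 6 positive and a median of 0.07. After the agonist 2 were lower and 1 higher, against 4.85% and 4.57%, with 7 positive and a median of 0.33.

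Among shuttle factors and p97 partners, Ubqln4, which carries ubiquitinated proteins to the 19S particle, was lower in GMP controls, at -0.96 ± 0.27 (edgeR adjusted p = 0.0407; lost in 5 of 6 refits, up to 0.22). Ufd1, a partner of p97, was lower in GMP after the agonist, at -0.66 ± 0.17 (edgeR adjusted p = 0.0275; lost in 5 of 6, up to 0.13). Of 11 partners of the particle, Txnl1, a thioredoxin bound to the lid, was lower in GMP in both conditions. Its log2 difference was -1.17 ± 0.23 in controls (edgeR adjusted p = 0.00683) and -1.35 ± 0.23 after the agonist (adjusted p = 0.00332). In controls 1 of the 11 was called lower and 1 higher, against 6.98% and 4.55% of all genes. After the agonist 2 were called lower and none higher, against 4.85% and 4.57%. The log2 difference was positive in 7 of the 11 in controls, with a median of 0.12, and in 4 after the agonist, with a median of -0.11.

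Sem1, a small lid subunit outside the name pattern, was at 44.5, 30.6 and 72.1 CPM in LSK-labelled controls and 109, 63.4 and 226 CPM in GMP controls. Its groups overlapped, and its log2 difference of 1.43 ± 0.41 (edgeR adjusted p = 0.0434) was lost in 4 of 6 refits (up to 0.216 without GMP control replicate 3). The ubiquitin ligase Ube3c was called after the agonist, at -0.69 ± 0.19 (adjusted p = 0.0368), and in none of the 6 refits without 1 library. Of 6 ubiquitin and E1 genes none was called in controls. After the agonist the E1 enzyme Uba6 was called lower, at -0.90 ± 0.23 (edgeR adjusted p = 0.0306), against 4.85% of all genes. That call was lost in 5 of 6 refits, with adjusted p up to 0.137.

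The core chaperone Pomp and the ubiquitin receptor Adrm1 did not pass between cell types. Pomp was at 196, 148 and 213 CPM in LSK-labelled controls and 246, 163 and 291 CPM in GMP controls, and Adrm1 at 419, 466 and 477 CPM against 310, 380 and 287 CPM. The log2 differences were 0.33 ± 0.23 (edgeR adjusted p = 0.421) and -0.50 ± 0.16 (adjusted p = 0.0679; 0.0399 with limma-voom), and the 2 groups of Adrm1 did not overlap.

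The agonist itself moved no constitutive gene past the threshold in LSK-labelled cells. None of the 44 genes tested was called by edgeR, against 0.338% of 13922 genes. At an unadjusted p under 0.05, 7 were higher and 2 lower, against 5.82% and 5.98% of all genes; DESeq2 called 2 (Psme2b higher and Psmd3 lower) and limma-voom none. The log2 change was positive in 34 of 44 with a median of 0.31, against 51.2% positive and a median of 0.02 over all genes. Among the shortest 25% of protein-coding transcripts, which hold 12 of the 14 core and 10 of the 17 19S genes, the median over 2842 genes was 0.30. The median over the 44 genes was 0.56 without LSK control replicate 3.

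Core and regulatory particle are given apart, and the difference between them was not tested. The mean level of the 14 genes of the 20S core was 133, 118 and 201 CPM per kilobase in LSK-labelled controls and 222, 211 and 183 after the agonist. Control replicate 3 lay inside the treated range and the other controls below it. The 17 genes of the 19S particle averaged 184, 185 and 222 CPM per kilobase in controls and 199, 199 and 184 after the agonist, so the groups overlapped throughout. The ratio of 19S to 20S level was 1.38, 1.57 and 1.10 in controls and 0.896, 0.943 and 1.003 after the agonist, without overlap.

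By log2 change 13 of 14 core genes were positive, with a median of 0.59, and 9 of 17 genes of the 19S particle, with a median of 0.10. With library size in place of TMM, which moved all genes by -0.14 in median, the 19S median was -0.04 with 7 positive, and the core median was 0.45 with 13 positive. The core median was 0.37 without LSK control replicate 2 and 0.92 without LSK control replicate 3. The 19S median was -0.03 without LSK control replicate 1, 0.03 without LSK control replicate 2, 0.01 without LSK STING agonist replicate 1 and 0.15 without LSK control replicate 3. By CPM of library total, in 5 of the 17 every treated library lay below every control, against 12.7% of all genes. In none did every treated library lie above, against 7.13%. The 5 were Psmd1, Psmd2, Psmd3, Psmd12 and Psmd13. TMM factors were 1.11, 1.03 and 1.01 in the controls and 0.942, 0.912 and 1.006 after the agonist. With CPM divided by these factors, Psmd3 and Psmd13 stayed without overlap, and the groups of Psmd1, Psmd2 and Psmd12 overlapped.

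**Figure D2:**
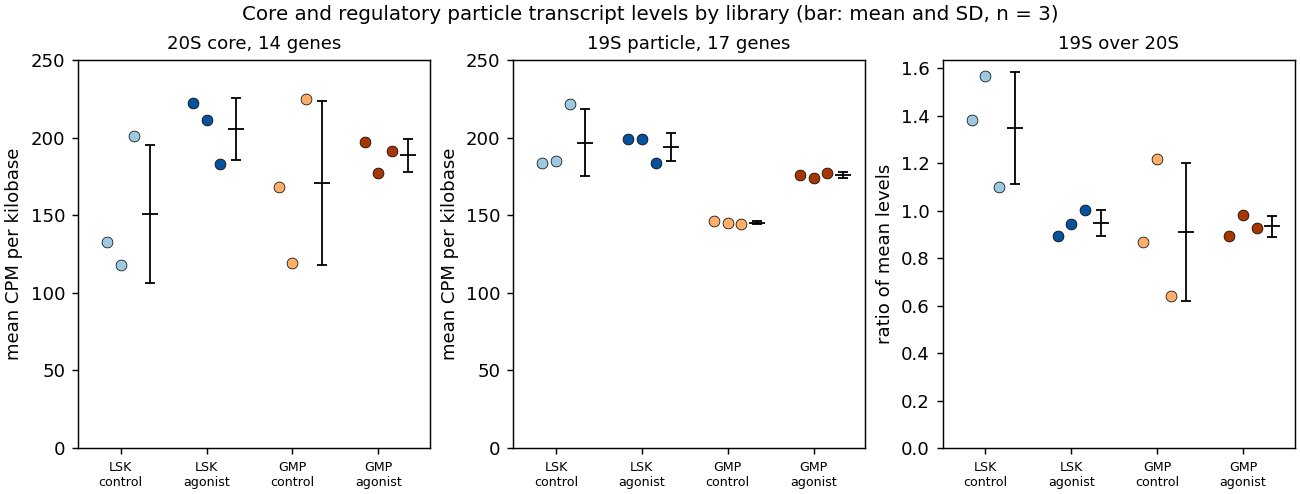
Mean CPM per kilobase of the 14 genes of the 20S core (left) and the 17 of the 19S particle (middle), and their ratio (right), by library; points are libraries, bars the mean and SD of 3. The 19S level in GMP was 144 to 146 CPM per kilobase in controls and 174 to 178 after the agonist, whereas the core spanned 119 to 225 among GMP controls.

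Among the 4 genes with the smallest p, Psmd3 was at 370, 457 and 386 CPM in LSK-labelled controls and 198, 188 and 299 CPM after the agonist, without overlap. Its log2 change was -0.70 ± 0.22 (SE; edgeR adjusted p = 0.326; DESeq2 adjusted p = 0.0346). Psmg4, a chaperone of the core, was at 29.0, 25.7 and 28.0 CPM and 58.3, 42.1 and 37.9 CPM, a log2 change of 0.89 ± 0.28 (edgeR adjusted p = 0.328). The beta subunit Psmb2 was at 302, 258 and 473 CPM and 576, 604 and 470 CPM, a log2 change of 0.82 ± 0.27 (edgeR adjusted p = 0.338), and its groups overlapped.

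Psme2b had the smallest p. It was at 33.1, 33.7 and 48.2 CPM in LSK-labelled controls and 105, 82.7 and 80.1 CPM after the agonist, a log2 change of 1.36 ± 0.27 (edgeR adjusted p = 0.131; 0.000403 with DESeq2 and 0.00109 with no filter on low counts). In GMP controls it was at 70.9, 49.0 and 101 CPM, the 1 gene of the 45 called higher than in LSK-labelled controls, with a log2 difference of 0.93 ± 0.28 (edgeR adjusted p = 0.048; lost without LSK control replicate 1 or 2 or GMP control replicate 1 or 3, with adjusted p up to 0.208). It lies at chr11:48945354-48946190 on the minus strand, where it overlaps Gm12185 and 9930111J21Rik1 on the same strand, and how reads shared with these genes or with Psme2 were counted is not given, so its values are uncertain.

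**Figure D3:**
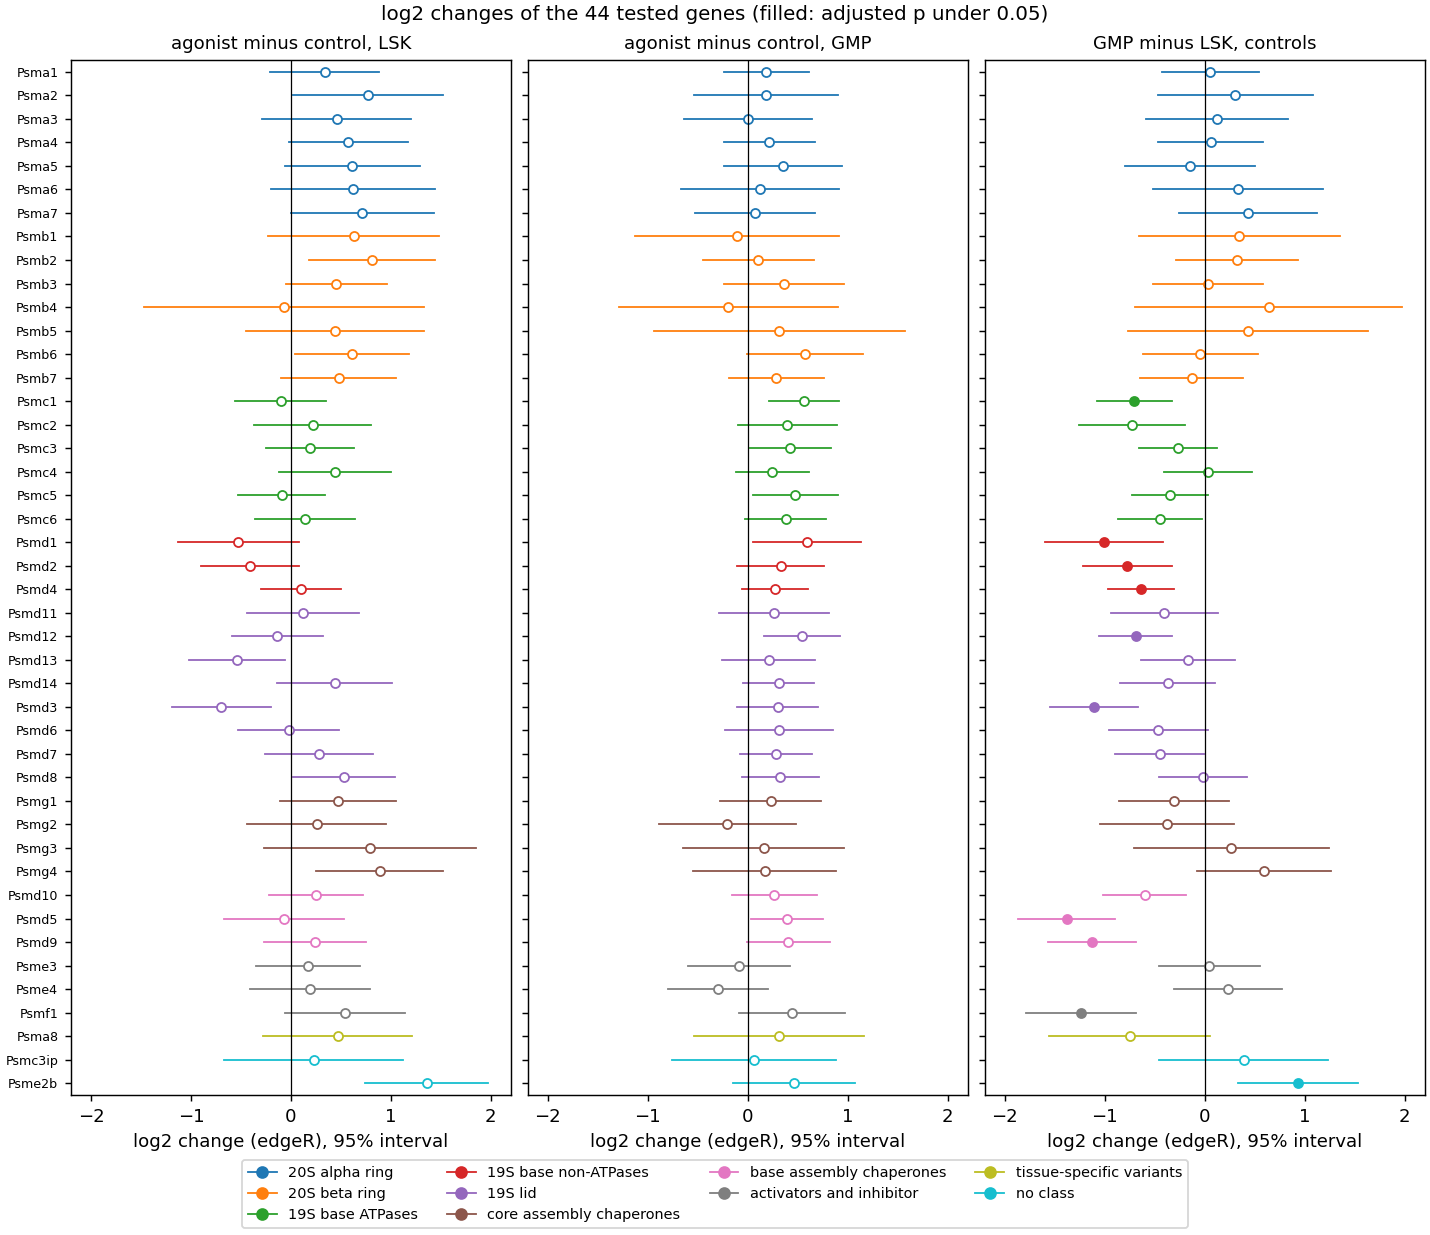
log2 change and 95% interval of the 44 genes tested, coloured by class, for the agonist in LSK-labelled cells (left), the agonist in GMP (middle) and GMP against LSK-labelled controls (right); filled points passed an adjusted p of 0.05. Filled points appear only on the right, 9 below 0 and Psme2b above.

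The constitutive catalytic genes can be set beside their inducible counterparts. Psmb6 was at 87.6, 90.7 and 72.1 CPM in LSK-labelled controls and 144, 111 and 88.5 CPM after the agonist, a log2 change of 0.61 ± 0.25 (edgeR adjusted p = 0.4). Psmb9, which takes its place, was at 109, 56.3 and 91.0 CPM and 377, 348 and 308 CPM, a log2 change of 2.17 ± 0.26 that passed (edgeR adjusted p = 0.0162). Treated and control groups overlapped for Psmb6 and were far apart for Psmb9.

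Psmb7 was at 167, 139 and 227 CPM in LSK-labelled controls and 251, 233 and 189 CPM after the agonist, a log2 change of 0.48 ± 0.25 (edgeR adjusted p = 0.505). Its counterpart Psmb10 was at 69.8, 63.3 and 86.9 CPM and 294, 239 and 246 CPM, a log2 change of 1.96 ± 0.22 that passed (edgeR adjusted p = 0.0116). For Psmb5 the log2 change was 0.44 ± 0.39 (adjusted p = 0.717) and for Psmb8, at 7.57, 4.28 and 4.54 CPM and 15.3, 10.1 and 22.2 CPM, it was 1.68 ± 0.50 (adjusted p = 0.308). The genes of the PA28 activator, Psme1 and Psme2, had log2 changes of 1.33 ± 0.27 (adjusted p = 0.151; 0.000369 with DESeq2) and 1.27 ± 0.23 (adjusted p = 0.102; 5.3e-05 with DESeq2).

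With 1 library left out, Psmb9 did not pass without LSK control replicate 3 (adjusted p = 0.0869) or LSK STING agonist replicate 1 (0.0995) or 2 (0.0763). Psmb10 did not pass without LSK control replicate 1 (0.0686) or 2 (0.0541), or LSK STING agonist replicate 1 (0.0824) or 2 (0.0525). In controls, Psmb9 and Psmb10 were already higher in GMP than in LSK-labelled cells, by log2 differences of 1.25 ± 0.26 (adjusted p = 0.00834) and 1.30 ± 0.28 (adjusted p = 0.0101), in each refit without 1 library. Psme2 was higher too, by 0.80 ± 0.23 (adjusted p = 0.0448; lost in 5 of 6 such refits, up to 0.158 without GMP control replicate 1).

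**Figure D4:**
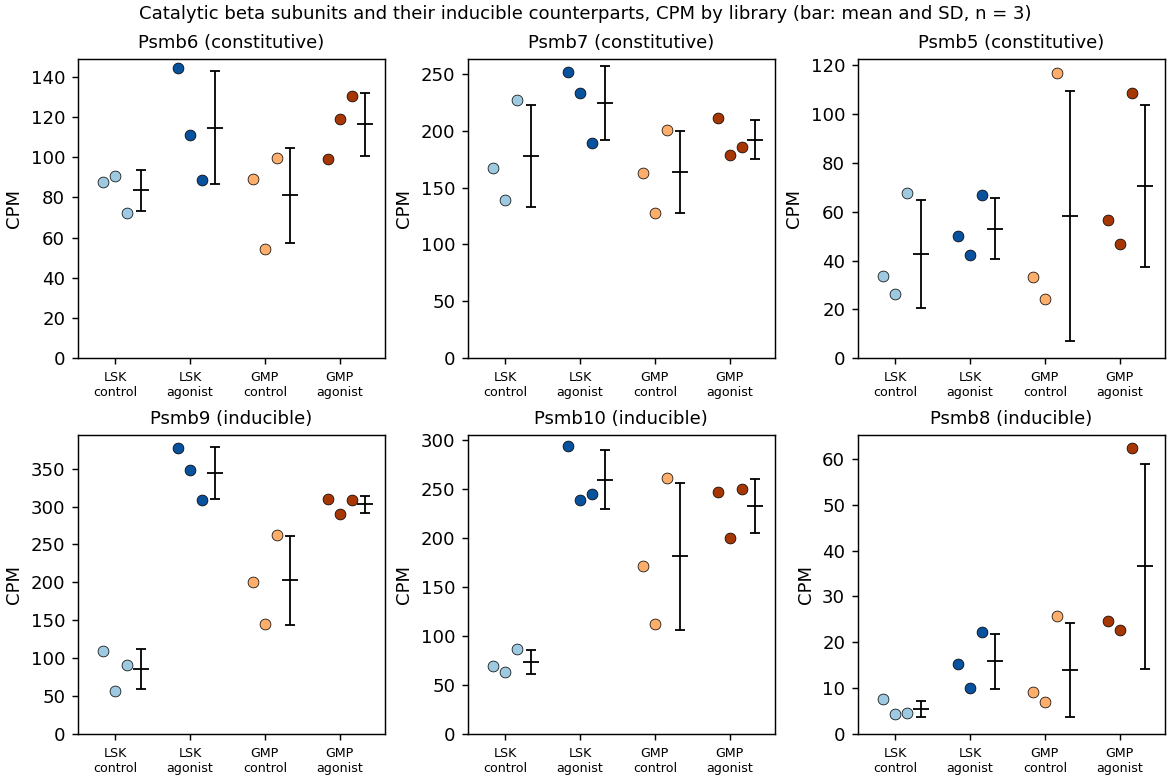
CPM by library for the constitutive catalytic genes Psmb6, Psmb7 and Psmb5 (top) and the inducible Psmb9, Psmb10 and Psmb8 (bottom); points are libraries, bars the mean and SD of 3, and each panel has its own scale from 0. Psmb9 in LSK-labelled cells went from 56.3 to 109 CPM in controls to 308 to 377 CPM after the agonist, while Psmb6 overlapped.

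In GMP no constitutive gene passed either. None of the 44 was called by edgeR, against 0.426% of 15027 genes, nor by DESeq2 or limma-voom. At an unadjusted p under 0.05, 6 were higher and none lower, against 4.3% and 4.84% of all genes. The log2 change was positive in 39 of 44 with a median of 0.29, against 46.3% positive and a median of -0.04 over all genes tested.

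Genes of the 19S particle had mostly higher values after the agonist in GMP libraries. Its mean level was 146, 145 and 144 CPM per kilobase in controls and 176, 174 and 178 after the agonist, without overlap. All 17 genes had a positive log2 change, from 0.21 to 0.59, with a median of 0.33, and with library size in place of TMM all 17 remained positive, with a median of 0.26. Without GMP control replicate 3 the median was 0.55. In 6 of the 17 every treated library lay above every control, against 6.29% of all genes, and in none below, against 10.3%.

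The core varied far more between GMP controls. It was at 168, 119 and 225 CPM per kilobase in controls, highest in replicate 3, and at 197, 177 and 192 after the agonist, inside the control range. Of its 14 genes 12 had a positive log2 change, with a median of 0.18. Without GMP control replicate 2 only 6 were positive, with a median of -0.07, and the median over the 44 genes was 0.18. Without GMP control replicate 3 all 14 were positive with a median of 0.57, and the median over the 44 genes was 0.52.

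Psmc1 had the smallest p, at 270.03, 244 and 269 CPM in GMP controls and 368, 376 and 362 CPM after the agonist, a log2 change of 0.56 ± 0.16 (edgeR adjusted p = 0.252). Psmd12 was at 96.1, 90.9 and 99.2 CPM and 125, 128 and 145 CPM, a log2 change of 0.54 ± 0.17 (edgeR adjusted p = 0.337). The ATPase Psmc5 was at 114, 143 and 164 CPM and 173, 184 and 203 CPM (0.47 ± 0.19, adjusted p = 0.502), and Psmd5 at 149.5, 148 and 158 CPM and 185, 196 and 193 CPM (0.40 ± 0.16, adjusted p = 0.503). In all 4 the groups did not overlap, yet none passed.

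The catalytic genes had log2 changes in GMP of 0.31 ± 0.56 for Psmb5, 0.57 ± 0.26 for Psmb6 and 0.29 ± 0.21 for Psmb7, with edgeR adjusted p of 0.937, 0.547 and 0.77. Their inducible counterparts did not pass either: Psmb8 had 1.43 ± 0.56 (adjusted p = 0.487; 0.00131 with no filter on low counts), Psmb9 0.63 ± 0.23 (adjusted p = 0.448) and Psmb10 0.41 ± 0.29 (adjusted p = 0.761). Psme1 had 0.63 ± 0.39 (adjusted p = 0.704) and Psme2 0.39 ± 0.22 (adjusted p = 0.668). Psmb9 was at 201, 145 and 262 CPM in GMP controls and 311, 290 and 309 CPM after the agonist, without overlap.

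The difference of the agonist's effect between GMP and LSK-labelled cells was tested as an interaction over 16857 genes. None of the 44 genes passed, nor did any gene (0%), and DESeq2 and limma-voom also called none of the 44. At an unadjusted p under 0.05, 7 were higher in GMP and 1 lower, against 6.19% and 3.94% of all genes, and the 7 all belonged to the 19S particle. The median interaction was 0.28 over that particle, with 14 of 17 positive, and -0.26 over the core, with 13 of 14 negative, against 0.01 over all genes tested. The core median was 0.03 without GMP control replicate 3, -0.12 without LSK control replicate 2, -0.48 without GMP STING agonist replicate 3, -0.49 without GMP control replicate 2 and -0.66 without LSK control replicate 3. The 19S median was 0.12 without LSK control replicate 3 and 0.43 without LSK control replicate 1 or GMP control replicate 3.

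The 4 genes with the smallest p were all of the 19S particle. Psmd3 had an interaction of 1.04 ± 0.28 on the log2 scale (SE; 95% interval 0.43 to 1.66; edgeR adjusted p = 0.374). Psmd1, at 210, 291 and 291 CPM in LSK-labelled controls and 118, 198 and 185 CPM after the agonist, and at 165, 171 and 242 CPM in treated GMP, had 1.17 ± 0.38 (0.34 to 1.99; edgeR adjusted p = 0.411). Psmd12 had 0.72 ± 0.24 (edgeR adjusted p = 0.414) and Psmc1 0.71 ± 0.24 (edgeR adjusted p = 0.414). By CPM of library total, 1 gene of the 44 had treated libraries below all LSK-labelled controls and above all GMP controls. That gene was Psmd12. Its LSK-labelled groups were close, with 132 CPM in STING agonist replicate 1 and 135 CPM in control replicate 1. The TMM factors of these libraries, 0.942 and 1.11, would reverse their order. For Psmb9 and Psmb10 the interaction was -1.48 ± 0.36 and -1.50 ± 0.39 (edgeR adjusted p = 0.374 for both; 0.0141 and 0.0249 with DESeq2).

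Transcript length differed between the classes. Of the core genes 12 of 14, and of the 19S genes 10 of 17, were among the shortest 25% of protein-coding transcripts, up to 1892 bases. The share of protein-coding counts from the other genes among them was 30.7, 28.6 and 35.0% in LSK-labelled controls and 41.5, 39.9 and 36.1% after the agonist. In GMP it was 35.7, 29.6 and 39.0% in controls and 36.9, 35.9 and 33.4% after it. Within each group the library highest in core level was also highest in this share. Across the 44 genes Spearman's rho between length and the log2 change was -0.55 in LSK-labelled cells, 0.15 in GMP and -0.58 for GMP against LSK-labelled controls, against -0.20, -0.17 and -0.05 over all protein-coding genes; genes share libraries and are not replicates. The part of transcript length in the core and 19S values was not tested.

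Mitochondrial genes held 1.70 to 2.41% of counts in LSK-labelled controls and 2.72 to 3.61% after the agonist, and 2.13 to 3.52% in GMP controls and 1.24 to 1.96% after it. Their part in these results was not tested.

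Among regulators, Nfe2l1 was at 68.9, 87.9 and 56.7 CPM in LSK-labelled controls and 33.3, 36.7 and 49.5 CPM after the agonist, without overlap, and its log2 change of -0.70 ± 0.26 did not pass (edgeR adjusted p = 0.372). In GMP it had 0.16 ± 0.19 (adjusted p = 0.88). Nfe2l2 had 0.21 ± 0.28 and 0.15 ± 0.17 in the same order (adjusted p = 0.82 and 0.864). Adrm1 had 0.15 ± 0.17 in LSK-labelled cells and 0.42 ± 0.17 in GMP (adjusted p = 0.777 and 0.496), and Pomp 0.42 ± 0.21 and 0.03 ± 0.23 (adjusted p = 0.488 and 0.99). None of the related lists outside the inducible form had a called member for the agonist in either cell type.

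The authors' deposited table of the agonist comparison gave an adjusted p under 0.05 for 3 of the 45 genes in LSK, which were Psmd3 lower (log2 fold change -0.73, adjusted p = 0.0416), Psme2b higher (1.34) and Psmg4 higher (0.86). The authors' deposited table for GMP gave 1, Psmc1 higher (0.56, adjusted p = 0.0334). In all, 777 of 15388 genes with an adjusted p were under 0.05 in LSK and 456 of 16939 in GMP. Of the 45 genes, 44 had an adjusted p in each cell type.

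The tissue variants and Psmc3ip were low. Psmb11 had 0 counts in 6 of 12 libraries and 1 to 8 counts in the others, and did not pass the filter on low counts. Psma8 was at 14.2, 20.9 and 22.1 CPM in LSK-labelled controls and 12, 6.66 and 15.6 CPM in GMP controls. Psmc3ip was at 12.9, 13.3 and 24.0 CPM in LSK-labelled controls and 19.2, 15.8 and 18.8 CPM after the agonist, a log2 change of 0.23 ± 0.39 (edgeR adjusted p = 0.866).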

How the data were processed

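Smart-Seq2 libraries of 4 groups with 3 libraries each were analysed; groups and replicate numbers came from the titles and the treatment label. Read counts per gene, whole numbers in 1 table for LSK and 1 for GMP, were deposited by the authors. Beside them stand a base mean (a normalized signal), a fold change given as a ratio, a log2 fold change and p-values with adjusted p, all deposited by the authors, per the file headers. How reads were aligned, counted and tested, and with which strand setting, is not given in the sources used here. According to the submitters' processing notes the build was mm9, but 94.7% of LSK and 94.8% of GMP gene positions equal those of GRCm38 in GENCODE M21, so positions are given as GRCm38. Each table had 1 empty line, left out.

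Counts were tested with edgeR 4.0.16 (R 4.3.3; quasi-likelihood test, TMM, filterByExpr, Benjamini-Hochberg at 0.05). The agonist was tested in 1 fit per cell type, and all 12 libraries entered another fit on 24982 shared genes for the interaction and the cell type comparisons. The separate and joint fits tested 13922, 15027 and 16857 genes. The SE is the log2 change divided by the square root of F. Alternatives were DESeq2 1.42.0, limma-voom 3.58.1, library size only, no filter, at least 5 CPM in 3 libraries, a replicate block, a joint fit and each library left out. Leaving out both libraries with mature neutrophil transcripts, and exon unions as gene length, were chosen after seeing the data. The fits were also run on simulated data with changes larger than those of any constitutive gene tested. These runs do not measure power for smaller changes. Transcript length is that of the longest principal transcript in GENCODE M21. Genes named are those called per comparison, or the 4 with the smallest p where fewer than 4 were called, the catalytic subunits and their inducible counterparts, the extremes of each class by level per kilobase, and up to 4 called members of each related list. Members and lists were chosen with earlier results of these data known. Levels are CPM. Counts of 30649314 or more per library leave counting error small beside the spread between libraries for genes named, except those with few counts. Exceptions include Psmb11, Nqo1 in GMP and Ly6a in LSK-labelled controls. No 2 libraries of a group agreed within sampling noise. Paaf1 was not analysed here. A gene of the related lists is not reported here.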

Additional observations from a re-analysis of the deposited data

How the results depend on the processing

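No constitutive gene was called for the agonist in GMP, or for the interaction, under any alternative run. For the agonist in LSK-labelled cells the count of called genes was 2 with DESeq2 and 1 with no filter on low counts, and 0 under the others. Between cell types in controls it was 10 in the main fit and 4 without both libraries with mature neutrophil transcripts, 4 to 8 with 1 library left out, and 7 to 11 under the others; after the agonist it was 3, with 1 to 3 with 1 library left out and 3 or 4 under the others. The median log2 change over the genes ranged with 1 library left out from 0.221 to 0.557 in LSK-labelled cells, from 0.18 to 0.515 in GMP, from -0.318 to 0.0700 for the interaction, from -0.342 to -0.000234 between cell types in controls and from -0.237 to -0.106 after the agonist. The highest for LSK-labelled cells and the lowest for the interaction were those without LSK control replicate 3. Of 1116 single gene values under the alternatives, 983 kept direction and call, 114 lost the call, 15 gained it and 4 changed sign; the cause was not tested. The 4 were Pomp in GMP with library size only (-0.024) and without GMP control replicate 2 (-0.171; range with 1 library left out -0.171 to 0.267), and Psmb5 in GMP without GMP control replicate 2 (-0.05) or GMP STING agonist replicate 3 (-0.11; range -0.11 to 1.40). With exon unions as length, the ratio of 19S to 20S level was 1.53 and 1.04 in LSK-labelled controls and treated libraries, and 1.03 and 1.05 in GMP, against 1.35, 0.947, 0.909 and 0.934. The replicate block gave 0 called genes for the agonist in either cell type and for the interaction, 10 between cell types in controls, of which 9 were shared with the main fit, and 3 after the agonist; under it Psmb9 and Psmb10 in LSK-labelled cells had adjusted p of 0.118 and 0.119. Same-numbered libraries deviated together with correlations of -0.0217, 0.136 and -0.0708 in LSK-labelled cells and 0.173, -0.0707 and 0.00717 in GMP. Between the cell types these were 0.0529, 0.191 and 0.396 in controls and 0.129, 0.0648 and 0.245 after the agonist, all positive. Differently numbered libraries ran there from -0.366 to 0.123 in controls and from -0.173 to 0.0727 after the agonist. Whether LSK and GMP libraries of the same number share mice is not given. The main fits did not pair them. Depth did not limit the named proteasome genes other than Psmb11. With 3 libraries a group, the log2 changes of 19S genes had a median standard error of 0.218 in LSK-labelled cells and 0.181 in GMP.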
